A study of Penicillium oxalicum with 10 samples.

Results

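The cutinase gene PDE_07475 and the triacylglycerol lipase gene PDE_06813 of the mould Penicillium oxalicum were followed across 10 RNA sequencing libraries. They are 2 of the 9859 genes in the deposited table and were chosen by gene ID because they differ from wild type in opposite directions in the swi6 deletion library. That contrast is therefore given as a description. Of the libraries, 9 carry the label of a gene deletion (swi6, stuA, abaA, wetA, or 1 of the flb genes flbA to flbE) and 1 is the wild type, M12. All are mycelia that grew for 20 h at 30 °C in a modified Czapek medium with 2% glucose and then for 48 h in new medium. No strain has a replicate, and the labels do not say how many transformants stand behind a deletion. No value below has a replicate error and no test across libraries was possible. A range in parentheses after a fold is a 95% counting interval, which leaves out the variation between cultures.

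Cutinases are small secreted serine esterases that split the ester bonds of cutin, the polyester of the plant cuticle. Triacylglycerol lipases split stored or external fats into fatty acids and glycerol. In filamentous fungi the fatty acids are activated with coenzyme A and shortened by beta-oxidation, and the acetyl-CoA produced can be built into sugars by way of the glyoxylate cycle, whose dedicated enzymes are isocitrate lyase and malate synthase.

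Library totals lay between 3.10 and 7.60 megareads, counted as uniquely placed reads. RPKM, the unit used here, scales the reads of a gene by its coding length in kilobases and by the library total in megareads. For swi6, a chromodomain gene (PDE_08896, chromobox protein 1) was read as a check, since Swi6 of fission yeast has a chromodomain; it had 0.246 RPKM in the swi6 deletion library, against 43.9 RPKM in wild type. For stuA, an APSES-type gene named SOK2 (PDE_04095) had 0.0733 RPKM in the stuA deletion library, against 377 RPKM in wild type. The FlbD-named gene PDE_03008 had 327 RPKM in the library labelled flbD deletion, against 341 RPKM in wild type. A gene of the TEA family of AbaA (PDE_02932) had 59.1 RPKM in the library labelled abaA deletion, against 28.5 RPKM in wild type. These 2 libraries go against their labels and are called by their labels throughout. A single gene, PDE_06605, took 27.9% of the reads of the flbA deletion and 7.54% of the swi6 deletion library, against 7.73% in wild type. The remaining 5 deletions were not checked in this way. The pairings of PDE_08896, PDE_04095 and PDE_02932 with a deletion rest on protein family and were made with their values known.

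PDE_07475, annotated as a putative cutinase with a coding length of 651 bases, was lower than in wild type in each of the 9 deletion libraries. Among the flb strains its level was 94.0 RPKM for flbA, 426 RPKM for flbB, 15.9 RPKM for flbC and 521 RPKM for flbE, and the library labelled flbD deletion had 136 RPKM. It was 111 RPKM in the wetA deletion, 222 RPKM in the library labelled abaA deletion, 78.2 RPKM in the stuA deletion and 3.83 RPKM in the swi6 deletion library, against 2316 RPKM in wild type. The swi6 and flbC deletion libraries stood lowest, the flbE and flbB deletion libraries were the highest of the deletions, and wild type stood above all of them. In RNA from whole mycelia, fewer cells that make a transcript and less of it per cell cannot be told apart. Wild type was the highest of the 10 libraries for 17.9% of the 9134 genes with a mean of at least 1 RPKM, and the swi6 deletion library was the lowest for 9.91%.

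**Figure D1:**
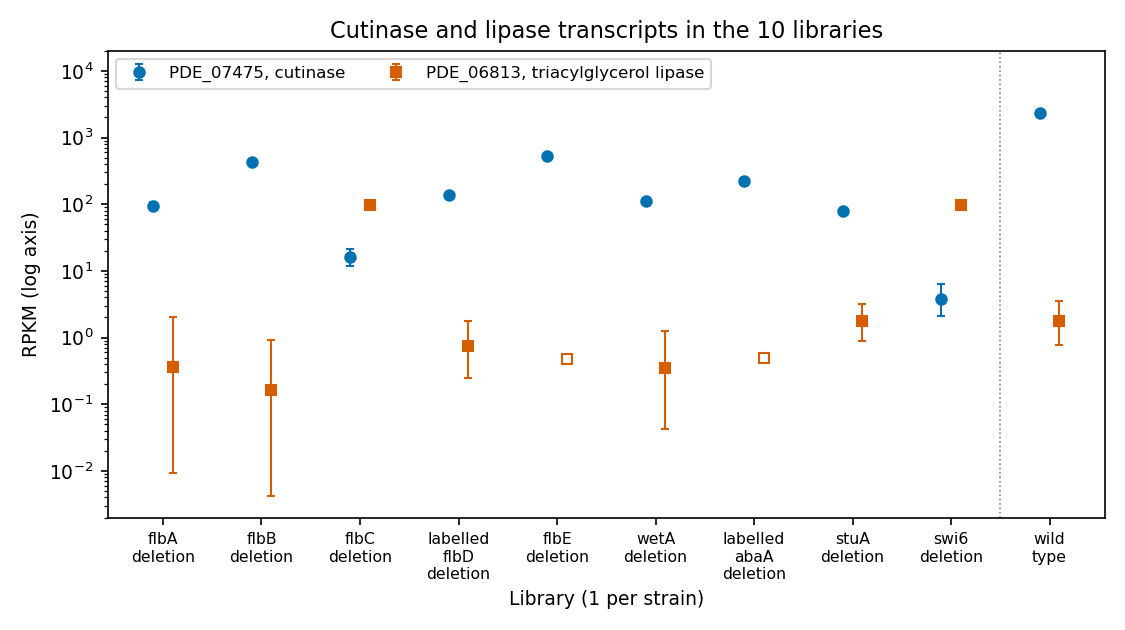
Levels of PDE_07475 (circles) and PDE_06813 (squares) in RPKM on a log axis, 1 point for each of the 10 libraries, with bars for the exact 95% Poisson counting interval (most bars of PDE_07475 are shorter than the symbols). Open squares mark libraries with 0 reads, drawn at the level that 3 reads would give. In the flbC and swi6 deletion libraries the lipase (97.9 and 95.9 RPKM) lies above the cutinase (15.9 and 3.83 RPKM), and in each of the other 8 libraries it lies below.

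The drop of the cutinase transcript differed widely in size between the strains. The ratio of RPKM put the swi6 deletion library 604-fold (359.8 to 1105) and the flbC deletion library 146-fold (109 to 199) below wild type. The stuA deletion library was 29.6-fold (26.6 to 33.0), the flbA deletion library 24.6-fold (21.3 to 28.6) and the wetA deletion library 20.8-fold (19.0 to 22.9) below it. The fold was 16.97 (15.7 to 18.4) in the library labelled flbD deletion and 10.5 (9.79 to 11.2) in the library labelled abaA deletion. The flbB and flbE deletion libraries had the smallest drops, 5.44-fold (5.17 to 5.72) and 4.44-fold (4.24 to 4.65). By this ratio all 9 folds exceeded 4-fold, and all 9 counting intervals lay wholly beyond 2-fold. The flbE deletion library fell short of 4-fold under other scalings. Its log2 ratio of -2.15 was -1.75 with median-of-ratios and -1.81 with TMM scaling.

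A drop of at least 2-fold was common in some of these comparisons. By the same ratio it was met by 38.8% of all kept genes for flbA, 26.0% for flbB, 9.77% for flbC, 24.4% for flbE, 23.4% for wetA, 16.5% for stuA and 13.1% for swi6. In the libraries labelled flbD and abaA deletion it was met by 14.8% and 13.7%. A drop of at least 2-fold in all 9 deletion libraries was met by 222 genes, or 2.43%, of which PDE_07475 is 1. The 9 comparisons share the single wild-type library, so a high level in that 1 culture and a drop in 9 strains cannot be told apart. Among the deletion libraries themselves, which do not share that reference, the levels still spanned 3.83 to 521 RPKM.

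On the RPKM scale, the order of the cutinase levels was resolved by counting error at nearly every step. Each library lay above the next one down by a ratio whose counting interval excluded 1, with the wetA and flbA deletion libraries as the exception at 1.18-fold (0.998 to 1.41). The smallest resolved steps were 1.20-fold (1.003 to 1.44) for the flbA over the stuA deletion library and 1.22-fold (1.15 to 1.30) for the flbE over the flbB deletion library. The place of the flbA deletion library depended on the scaling: its log2 ratio of -4.62 to wild type was -3.90 with median-of-ratios scaling and -4.27 with totals that leave out PDE_06605. It then lay above the wetA deletion library (-4.09 and -4.47 under these scalings), and with median-of-ratios scaling it was level with the library labelled flbD deletion (-3.90). At the bottom, the swi6 deletion library was 4.15-fold lower (2.24 to 8.17) than the flbC deletion library and 20.4-fold lower than the stuA deletion library.

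Read depth and read placement give the weight behind these levels. In the swi6 deletion library PDE_07475 had 14 reads that covered 66.7% of its length, and in the flbC deletion library 46 reads that covered 89.3%, against 7765 reads and 99.9% in wild type. The other 7 deletion libraries had 190 to 2466 reads and at least 98.2% of the length covered. Within each library, the cutinase was higher than 17.8% of all genes in the swi6 deletion and 33.4% in the flbC deletion library, against 99.7% in wild type, where it ranked 32 from the top. In the remaining deletion libraries it was higher than 81.2% to 97.5% of genes.

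PDE_06813, assigned to the triacylglycerol lipases with a coding length of 876 bases, showed the reverse in a pair of libraries and was near the limit of detection elsewhere. Among the flb strains its level was 0.368 RPKM for flbA, 0.166 RPKM for flbB, 97.9 RPKM for flbC and 0 for flbE, and the library labelled flbD deletion had 0.751 RPKM. It was 0.345 RPKM in the wetA deletion, 0 in the library labelled abaA deletion, 1.77 RPKM in the stuA deletion and 95.9 RPKM in the swi6 deletion library, against 1.77 RPKM in wild type. The flbC and swi6 deletion libraries were high and alike, and all 8 others were at or below 1.77 RPKM. Those 8 libraries held 28 reads of this gene in all.

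In the swi6 deletion library the lipase was 54.1-fold higher (27.2 to 126) than in wild type, and in the flbC deletion library 55.2-fold higher (27.7 to 129). An increase of at least 2-fold was met by 11.9% of kept genes in the swi6 deletion and by 15.8% in the flbC deletion library. Both at once, with no such increase in the other 7 deletion libraries, was met by 160 genes, or 1.75%, including PDE_06813. The swi6 and flbC deletion libraries did not differ beyond counting error for the lipase, at a ratio of 0.979 (0.854 to 1.12), whereas the cutinase differed between them. Reads covered 99.9% of the lipase gene in the swi6 deletion and 99.7% in the flbC deletion library, from 471 and 381 reads, against 37.8% from 8 reads in wild type. The lipase was higher than 84.9% of genes in the swi6 deletion and 82.9% in the flbC deletion library, against 11.9% in wild type.

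Below the wild-type level the lipase could hardly be measured. By the ratio of RPKM 6 deletion libraries were at least 2-fold lower than wild type, but each of them had 0 to 5 reads. The flbE deletion library and the library labelled abaA deletion had 0 reads. Counting 3 reads in their place put the gene 3.76-fold and 3.64-fold lower. These folds take the few wild-type reads as exact, so they are not lower bounds. The counting intervals of these 2 libraries, from 0 reads, lay wholly beyond 2-fold. The ratio was 0.0934 (0.00211 to 0.697) in the flbB and 0.195 (0.0201 to 0.976) in the wetA deletion library. The intervals of the flbA deletion (0.207, 0.00468 to 1.55), the library labelled flbD deletion (0.424, 0.109 to 1.47) and the stuA deletion library (0.996, 0.365 to 2.85) included 1. Below wild type, no neighbours in the order of lipase levels differed beyond counting error. Since the mean over the 8 libraries other than swi6 and flbC was 0.646 RPKM, the gene passed the filter of a mean of 1 RPKM only through the libraries in which it was high.

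Set against all 9134 kept genes on the scale log2(RPKM + 1), the cutinase ranked 2 from the bottom (-8.90) and the lipase 24 from the top (5.13) for the swi6 deletion library. In the flbC deletion library the cutinase ranked 6 from the bottom (-7.10) and the lipase 35 from the top (5.16). The median gene was shifted by -0.14 in the swi6 and by 0.12 in the flbC deletion library, and by -0.64 to 0.03 in the other deletion libraries.

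**Figure D2:**
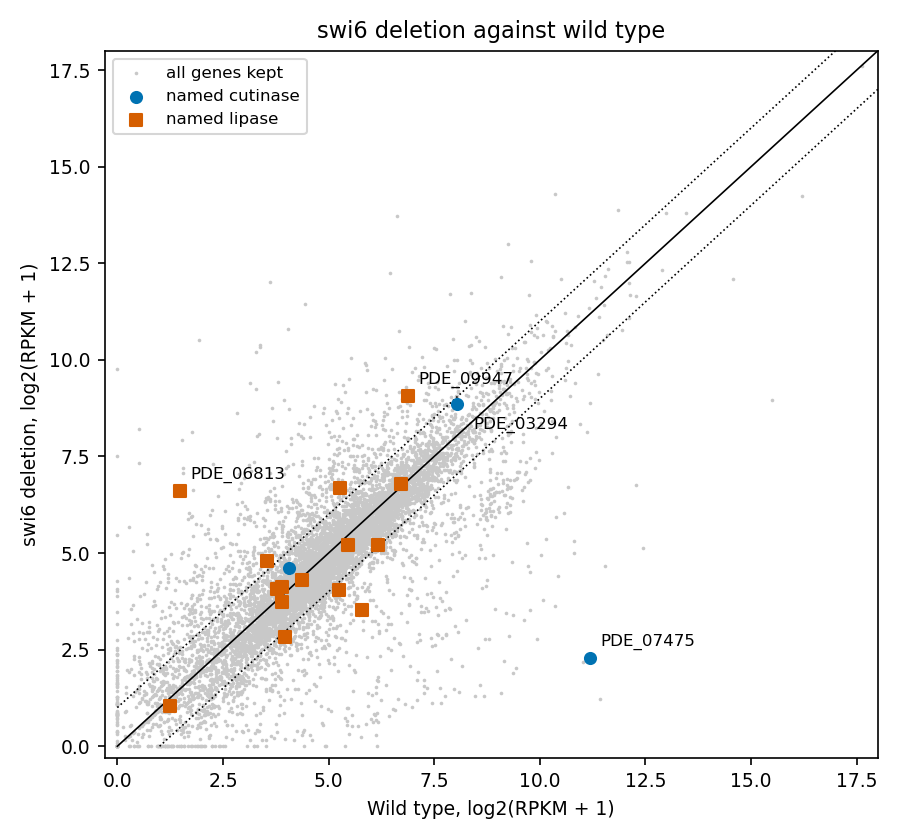
Levels in the swi6 deletion library (vertical axis) against wild type (horizontal axis), both as log2(RPKM + 1), for all 9134 kept genes (grey), the 3 genes named cutinase (circles) and the 15 kept genes named lipase (squares). The solid line marks equal levels and the dotted lines a 2-fold difference; PDE_07475 lies far below the lines and PDE_06813 far above, while most other lipases lie between them.

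The annotation names 3 cutinases, and each had its highest level in a different library. PDE_03294 had 1.26 RPKM from 3 reads in the flbA deletion, 1665 RPKM in the stuA deletion and 462 RPKM in the swi6 deletion library, against 261 RPKM in wild type. In the other 6 deletion libraries it lay between 73.3 and 202 RPKM. It was 6.38-fold higher (5.98 to 6.81) in the stuA deletion and 1.77-fold higher (1.64 to 1.91) in the swi6 deletion library than in wild type.

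PDE_04915, the remaining cutinase, had 376 RPKM in the flbA deletion, 176 RPKM in the stuA deletion, 50.8 RPKM in the flbC deletion and 23.6 RPKM in the swi6 deletion library, against 15.8 RPKM in wild type. The other 5 deletion libraries had 9.47 to 17.2 RPKM. It was 23.8-fold higher (19.5 to 29.3) in the flbA and 11.1-fold higher (9.10 to 13.7) in the stuA deletion library. In the swi6 deletion library both other cutinases were thus within 2-fold above wild type while PDE_07475 was 604-fold lower. With median-of-ratios scaling PDE_03294 was 2.03-fold higher there.

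Summed over the 3 cutinases, RPKM was 489.8 in the swi6, 254 in the flbC, 1919 in the stuA and 472 in the flbA deletion library, against 2592 in wild type. PDE_07475 made up 0.783% of that sum in the swi6, 6.27% in the flbC, 4.08% in the stuA and 19.9% in the flbA deletion library, against 89.3% in wild type. In the remaining 5 deletion libraries it held 51.1% to 79.0% and was the highest of the cutinases.

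**Figure D3:**
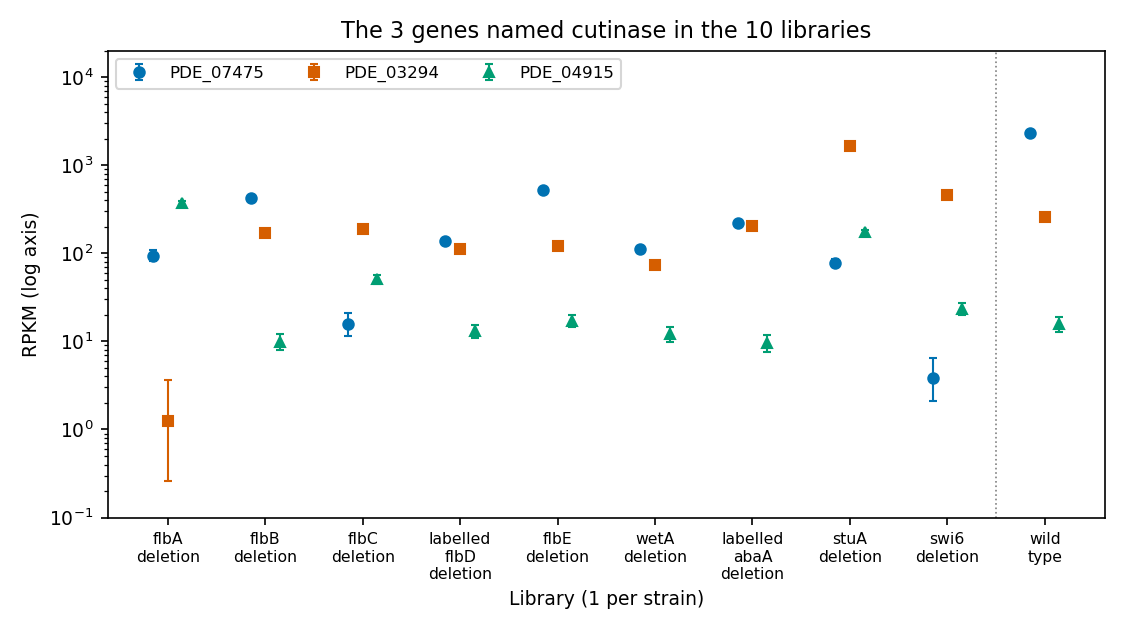
RPKM on a log axis of the 3 genes named cutinase in the 10 libraries, 1 library per strain, with exact 95% Poisson counting intervals. PDE_07475 is highest in wild type (2316 RPKM), PDE_03294 in the stuA deletion library (1665 RPKM) and PDE_04915 in the flbA deletion library (376 RPKM).

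Of 17 genes whose annotation names a lipase, 15 passed the filter, and 4 were at least 2-fold higher and 3 at least 2-fold lower in the swi6 deletion library on the log2(RPKM + 1) scale. Over all kept genes these shares were 11.0% higher and 11.9% lower. The median lipase difference was -0.06, against -0.14 over all kept genes. In the flbC deletion library 2 lipases were higher and 3 lower, against 14.6% and 8.85% of all kept genes. PDE_06813 is among the higher genes in both counts, and it passed the filter only through these libraries.

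PDE_09947 is the lipase most closely tied to PDE_06813 by annotation, since the deposited KEGG column lists the same Aspergillus fumigatus gene as the hit of both and of no other lipase. PDE_09947 had 534 RPKM in the swi6 deletion and 178 RPKM in the flbC deletion library, against 117 RPKM in wild type, and 21.9 to 55.8 RPKM in the other 7 deletion libraries. It was 4.57-fold higher (4.16 to 5.02) in the swi6 and 1.52-fold higher (1.36 to 1.71) in the flbC deletion library. As for PDE_06813, these were the highest libraries, but wild type stood well above the other deletions for PDE_09947. Only uniquely placed reads were counted, and how far the sequences of the genes resemble each other was not analysed here.

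The other lipases that passed 2-fold in the swi6 deletion library differed from PDE_06813 in pattern. PDE_03243 (esterase / lipase) had 101 RPKM in the swi6 deletion library, against 37.7 RPKM in wild type, and PDE_09364 (esterase / lipase) had 26.8 against 10.7 RPKM. PDE_09364 reached 129 RPKM in the flbB and 109 RPKM in the flbE deletion library, where PDE_06813 had 1 and 0 reads. Lower were PDE_04497 (triacylglycerol lipase), with 10.5 RPKM in the swi6 deletion library against 54.4 RPKM in wild type, PDE_06791 (a lipase that also carries an acyltransferase name), with 15.5 against 37.2 RPKM, and PDE_04195 (esterase / lipase), with 6.06 against 14.6 RPKM. PDE_04497 was lower in all 9 deletion libraries, down to 0.317 RPKM in the flbA deletion library.

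Other lipases stayed within 2-fold in the swi6 deletion library. PDE_04222, named ATG15 after the vacuolar lipase that breaks down autophagic bodies in yeast, had 110 RPKM in the swi6 deletion library, against 104 RPKM in wild type. PDE_05571, named for a lipase and steryl ester hydrolase, had 35.7 against 71.3 RPKM, just short of 2-fold. The remaining kept lipases PDE_02033, PDE_02515, PDE_03259, PDE_03426, PDE_05910 and PDE_08709 were within 2-fold of wild type there. PDE_05692 and PDE_08957, which did not pass the filter, had at most 0.183 and 1.88 RPKM in any library.

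**Figure D4:**
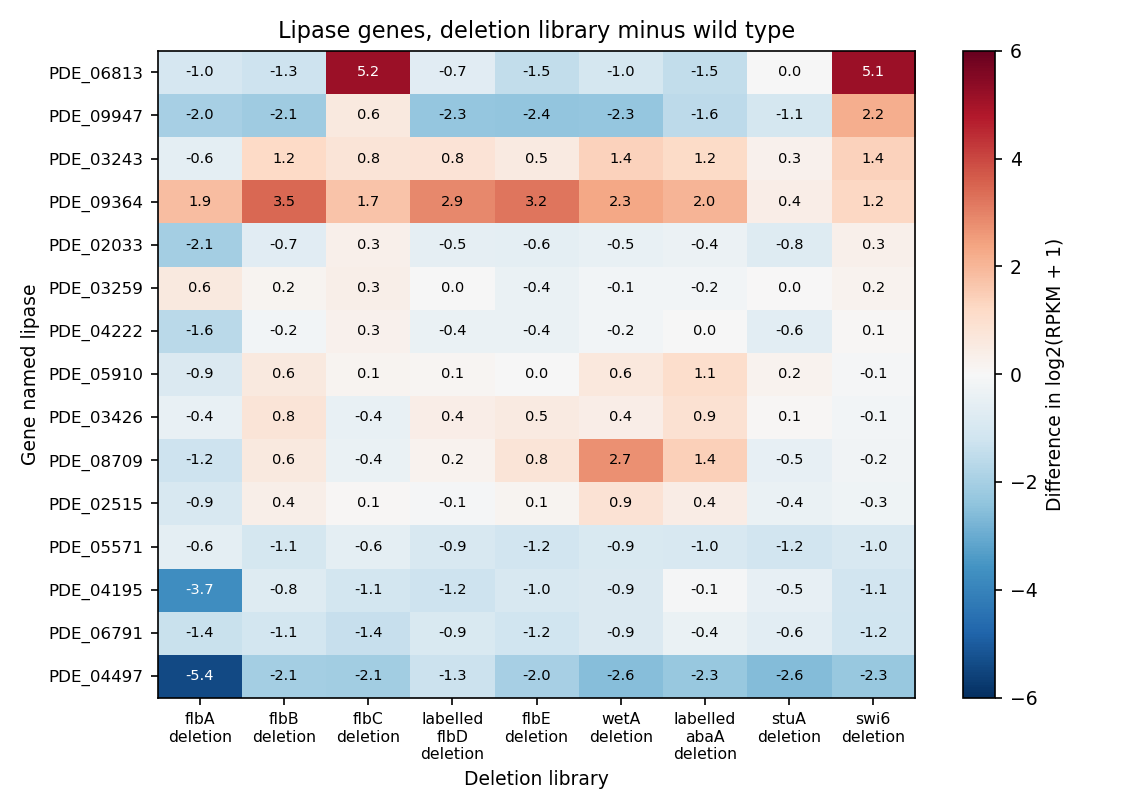
Difference in log2(RPKM + 1) between each of the 9 deletion libraries (columns) and wild type for the 15 kept genes named lipase (rows, ordered by the swi6 deletion column); red is higher and blue lower than wild type. PDE_06813 is high in the flbC (5.16) and swi6 (5.13) deletion libraries and otherwise between -1.47 and 0.00.

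Lists of 8 kinds of lipid ester and fatty acid genes were taken from the annotation, 94 genes in all, of which 89 were kept. In the swi6 deletion library 11 of them were at least 2-fold higher and 14 lower, or 12.4% and 15.7%, close to the 11.0% and 11.9% over all kept genes. The median difference of these genes was 0.14, against -0.14 over all kept genes. In the flbC deletion library 16 were higher and 9 lower, or 17.98% and 10.1%, also close to the shares over all genes. The counts of both libraries include PDE_06813 among the higher and PDE_07475 among the lower genes. Both genes were chosen by the swi6 contrast, and PDE_06813 passed the filter only through the swi6 and flbC deletion libraries. Triacylglycerol synthesis genes had no member of 7 past 2-fold in either library. The largest differences of that list in the swi6 deletion library were those of a lysophosphatidate acyltransferase (PDE_04206), with 26.5 against 51.4 RPKM in wild type, and the phosphatidate phosphatases PDE_03270, with 35.4 against 42.6 RPKM, and PDE_00335, with 72.1 against 60.3 RPKM.

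The list of fatty acid activation and beta-oxidation genes also took, by its text pattern, some genes outside that pathway. These include PDE_03949 and PDE_06028 (very-long-chain (3R)-3-hydroxyacyl-CoA dehydratase) and PDE_01569 (glutaryl-CoA dehydrogenase). Of its 30 kept genes, 3 were higher and 5 lower in the swi6 deletion library, or 10% and 16.7%, against 11.0% and 11.9% of all kept genes. The 5 lower genes became 2 with median-of-ratios scaling and 1 with a pseudocount of 5, while the 3 higher stayed 3 in number. In the flbC deletion library 7 were higher and 1 was lower, or 23.3% and 3.33%, against 14.6% and 8.85% of all kept genes. An acyl-CoA oxidase (PDE_05098), which starts the peroxisomal pathway, had 59.3 RPKM in the swi6 and 20.0 RPKM in the flbC deletion library, against 7.02 RPKM in wild type, and at most 4.88 RPKM elsewhere. An acyl-CoA dehydrogenase (PDE_08787), which starts the mitochondrial pathway, had 141 RPKM in the swi6 and 135 RPKM in the flbC deletion library, against 48.3 RPKM in wild type. Like the lipase PDE_06813, both had their highest levels in these libraries. PDE_00193, which carries no name, had 28.03 RPKM in the swi6 and 27.9 RPKM in the flbC deletion library, against 86.5 RPKM in wild type, and was lower in all 9 deletion libraries (4.05 to 30.8 RPKM). These 3 genes had the largest differences of the list in the swi6 deletion library.

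The glyoxylate list held 6 genes, 2 higher and 1 lower in the swi6 deletion library. These shares were 33.3% and 16.7%, against 11.0% and 11.9% of all kept genes. Against the median of the other 9 libraries the 2 higher became 0. Malate synthase (PDE_03483) had 408 RPKM in the swi6 deletion library, against 114 RPKM in wild type, and isocitrate lyase (PDE_08297) 287 against 111 RPKM. These rises were not limited to the libraries with a high lipase: malate synthase reached 1109 RPKM in the flbE deletion library, where PDE_06813 had 0 reads. The lower gene, PDE_06062, is named methylisocitrate lyase, an enzyme of propionate breakdown rather than of the glyoxylate cycle, which the text pattern also took. The pattern likewise took PDE_05337 (methylisocitrate lyase) and PDE_00404 (2-isopropylmalate synthase), which are not enzymes of the glyoxylate cycle either. The remaining gene of the list, PDE_03451 (isocitrate lyase), did not pass 2-fold in the swi6 deletion library.

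Among phospholipases 1 of 15 was higher and 2 were lower in the swi6 deletion library. These shares were 6.67% and 13.3%, against 11.0% and 11.9% of all kept genes. PDE_06080 (phosphatidylglycerol phospholipase C) had 123 RPKM in the swi6 and 69.3 RPKM in the flbC deletion library, against 32.4 RPKM in wild type. PDE_00500 (phospholipase C) had 191 against 583 RPKM, and PDE_01634, which carries only a phosphatidylinositol phospholipase C term, 24.3 against 172 RPKM. Of 5 esterases 2 were lower, the acetyl xylan esterase PDE_09278 (2.39 against 9.62 RPKM) and the feruloyl esterase PDE_08238 (62.8 against 134 RPKM), both enzymes of plant wall breakdown. That was 40% of the list, with 0% higher, against 11.9% lower and 11.0% higher of all kept genes. The 2 lower esterases became 1 with median-of-ratios scaling or a pseudocount of 5, and 0 against the median of the other 9 libraries. Another gene named feruloyl esterase, PDE_06649, had 21.5 against 12.3 RPKM. The glycerol list of 9 genes also took a sphingosine kinase (PDE_00684) and a diacylglycerol kinase (PDE_05105), which are not enzymes of glycerol use, by its text pattern. In that list 1 gene was higher, the unnamed PDE_01459 (23.5 against 11.2 RPKM), a count that became 0 with a pseudocount of 5 and 2 with median-of-ratios scaling. The shares of the glycerol list were 11.1% higher and 0% lower, against 11.0% and 11.9% of all kept genes. Glycerol-3-phosphate dehydrogenase (PDE_06831) had 88.5 against 46.2 RPKM, and glycerol kinase (PDE_08993) had 54.99 against 38.6 RPKM.

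Genes of similar pattern were sought among the kept genes with a name, by Pearson's r of log2(RPKM + 1) over the 10 libraries. For the lipase the leading 5 were a chitin binding domain protein (PDE_03292, r = 0.984), a beta-1,3-glucanase (PDE_03291, r = 0.976), the secreted aspartic protease aspergillopepsin I (PDE_07344, r = 0.957), an alpha-mannosidase (PDE_09249, r = 0.946) and an alpha-glucoside symporter (PDE_07416, r = 0.943). PDE_03292 had 158 RPKM in the swi6 and 424 RPKM in the flbC deletion library, against 3.81 RPKM in wild type. PDE_03291 had 28.5 and 112 RPKM in them, against 1.84 RPKM in wild type, and PDE_07344 had 670.5 and 138 RPKM, against 7.84 RPKM. The libraries fall into separate groups for this gene, with 2 high and 8 near 0, so r mainly records which libraries were high. Without the swi6 and flbC deletion libraries r was 0.593 to 0.873 for these genes, over levels of a few reads for some of them.

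For the cutinase the most similar named gene was methylisocitrate lyase (PDE_06062, r = 0.894), with 34.2 RPKM in the swi6 and 27.8 RPKM in the flbC deletion library, against 5601 RPKM in wild type. It was 164-fold lower (142 to 190.2) in the swi6 and 202-fold lower (169 to 243) in the flbC deletion library. Unlike the cutinase it stayed high in the stuA deletion library, at 1780 RPKM. Next came agmatinase (PDE_01174, r = 0.805), 2 genes named seryl-tRNA synthetase (PDE_02127, r = 0.799 and PDE_04862, r = 0.791) and a prenyl transferase of cyclic dipeptides (PDE_01066, r = 0.783). PDE_01066 had 3.07 RPKM in the swi6 and 17.1 RPKM in the flbC deletion library, against 688 RPKM in wild type, but its lowest level was 1.06 RPKM from 4 reads in the flbA deletion library, where the cutinase had 94.0 RPKM. Without the swi6 deletion library and wild type, the extremes of the cutinase, r was 0.782 for PDE_06062 and 0.915 for PDE_04862 but 0.162 for PDE_02127, which had 0 reads in the swi6 deletion library.

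**Figure D5:**
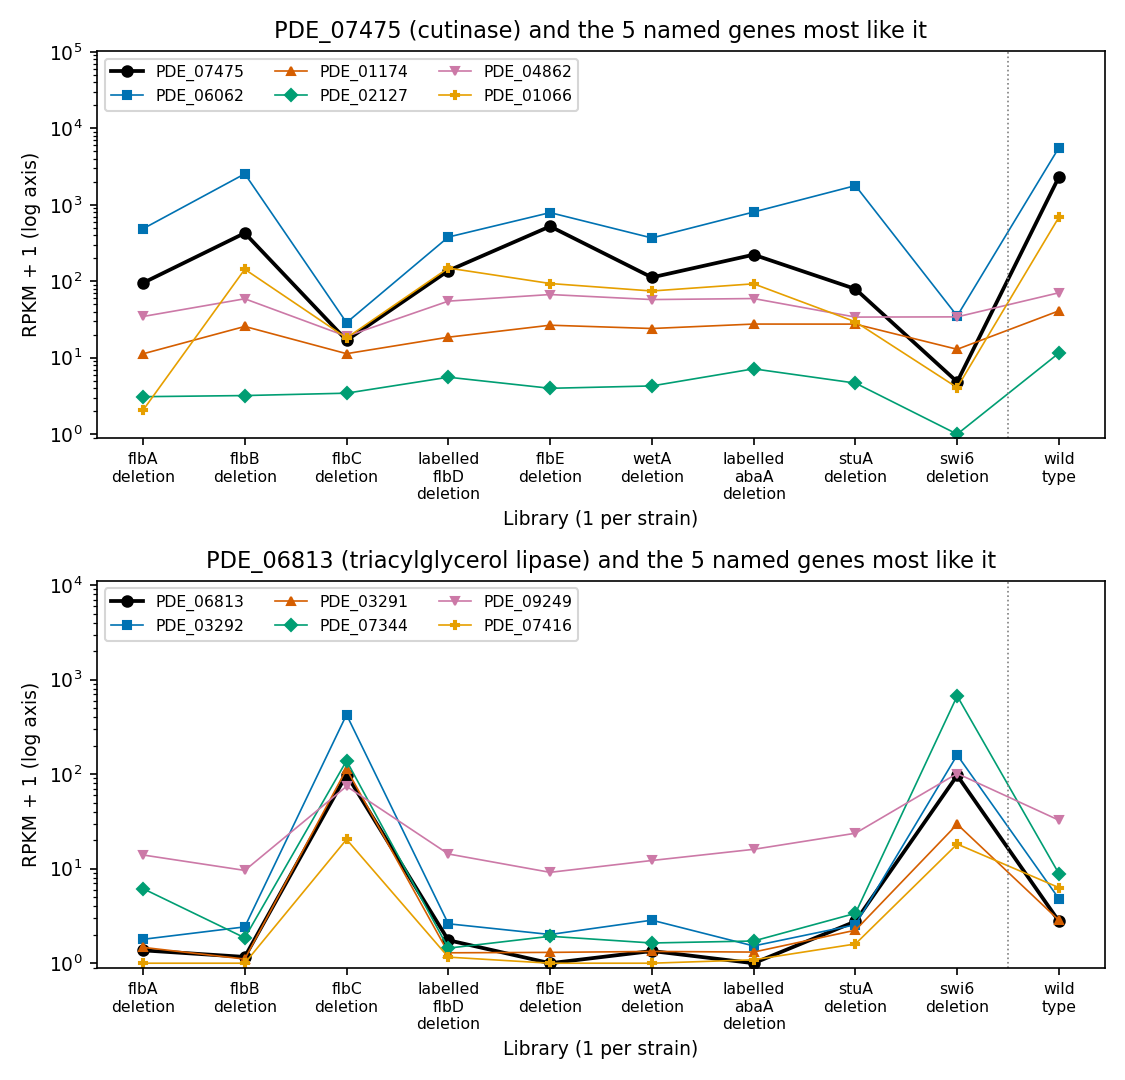
RPKM + 1 on a log axis in the 10 libraries for the cutinase PDE_07475 (top, black) and the lipase PDE_06813 (bottom, black), each with the 5 named genes of the highest Pearson's r (coloured lines, which only join the points of a gene). The lipase group peaks in the flbC and swi6 deletion libraries, and PDE_06062 and PDE_01066 are low with the cutinase in the swi6 deletion library (34.2 and 3.07 RPKM), while PDE_01066 is lowest in the flbA deletion library (1.06 RPKM).

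None of the 6 genes nearest to the cutinase by locus number was highest in wild type. PDE_07474 and PDE_07476, on either side of it by number, had at most 0.911 and 1.29 RPKM in any library. PDE_07473, a subunit of ribonucleotide reductase, which makes the building blocks of DNA, had 124 RPKM in the swi6 deletion library, against 78.2 RPKM in wild type. PDE_07478, a mannosyltransferase of protein glycosylation, had 182 against 154 RPKM. PDE_07472 (41.1 against 69.3 RPKM) and PDE_07477 (0.206 against 0.672 RPKM) carry no name.

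Next to the lipase, the acid phosphatase PDE_06814 had its highest levels in the same libraries, with 43.5 RPKM in the swi6 and 50.4 RPKM in the flbC deletion library, against 30.6 RPKM in wild type and 4.95 to 17.1 RPKM in the other 7 deletion libraries. Over wild type that was 1.42-fold (1.16 to 1.74) and 1.65-fold (1.34 to 2.02). The carboxypeptidase PDE_06812, on the other side, had 26.1 RPKM in the swi6 deletion library, against 31.2 RPKM in wild type. PDE_06810, PDE_06811, PDE_06815 and PDE_06816 were within 2-fold of wild type in the swi6 deletion library. Genome positions were not used here, so a neighbour by number is not shown to be a neighbour on the chromosome.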

How the data were processed

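The deposited table gives, per the file headers, each gene's count of uniquely placed reads, the RPKM made by the authors from that count, and the percent of the gene covered by reads. A dash was read as 0. Counts summed to the header totals in 10 libraries, and recomputed RPKM differed by a relative gap of at most 2.57e-08. Lengths are multiples of 3 for 9856 genes and are called coding length. CASAVA 1.8 is named, without a role, per the submitters' processing notes. Aligner and genome build: not given in the sources used here.

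Folds are ratios of RPKM, with 3 reads in place of 0, and exact conditional (Clopper-Pearson) 95% intervals of the counts, which cover counting error only. They take each read as independent, although reads carry no molecular identifiers. Genes were counted at 2-fold, over 9134 kept genes (mean RPKM not under 1), on the ratio for the members and on log2(RPKM + 1) for lists, which makes differences of weak genes smaller. The authors' read counts also gave median-of-ratios size factors and TMM factors (edgeR 4.0.16) as alternatives. Python 3.11.15 and scipy 1.17.1 were used. The fold and interval code was checked on simulated Poisson counts, the model that the intervals assume. The intervals covered the set fold for 193 of 200 changed genes at the swi6 and 186 of 200 at the flbA library depth. All changed genes had many reads in wild type, so the check does not speak to levels of a few reads.

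Lists are text patterns in the deposited annotation. Besides the members, the genes named are all cutinases and lipases, the 3 largest differences in the swi6 deletion library per other list, the 5 named genes most like each member, the 3 locus numbers on either side and genes that check the labels. The members and lists were chosen with earlier results of these data known.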

Additional observations from a re-analysis of the deposited data

How the results depend on the processing

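No paired analysis was possible because each strain has 1 library. The cutinase log2 ratio of -9.24 was -8.04 with a pseudocount of 5 and -5.15 against the median of the other 9 libraries. The lipase log2 ratio of 5.76 was 3.90 and 8.03 under these settings. With totals that leave out PDE_06605 the flbA log2 ratios were -4.27 for the cutinase, in place of -4.62, and -1.91 for the lipase, in place of -2.27. Against that median the cutinase turned to higher in the flbB (1.94), flbE (2.23) and labelled flbD (0.29) and abaA (0.99) deletion libraries, and the lipase likewise in the labelled flbD library (1.03), with the stuA lipase ratio at 2.26 in place of -0.01. A gene highest in wild type must turn in some deletion libraries under that reference. The 6 libraries with a lower lipase became 3 at 4-fold, the flbA, flbB and wetA deletion libraries. By an interval wholly beyond 2-fold they became 2, neither of them among those 3. These were the flbE and the labelled abaA deletion libraries, which had 0 reads. The 14 lower genes of the 8 lists became 8 with a pseudocount of 5, and 9 both with median-of-ratios scaling and with the median reference; the cause was not tested. Of the 5 genes most like each member, rank correlation kept 1 for the cutinase and 0 for the lipase among its own leading 5. The median r of the 5 was 0.717 to 0.895 for the cutinase when each library was left out in turn, and 0.936 to 0.976 for the lipase. Depth limits the lipase below wild type, where 3 reads are worth 0.451 to 1.10 RPKM in the deletion libraries.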
